A study of Mus musculus with 4 samples.

Results

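The genes described here are the replication-dependent histone genes of the mouse, taken as every gene whose symbol begins with Hist1h, Hist2h, Hist3h or Hist4h once the deposited transcript identifiers are matched to symbols. Of 70 such symbols in the GENCODE M21 annotation, 62 had an isoform in both liver libraries, among 33777 symbols shared by these libraries. They are 6 H1, 19 H2A, 16 H2B, 9 H3 and 12 H4 genes: 52 Hist1h genes on chromosome 13, 7 Hist2h genes on chromosome 3 and 3 Hist3h genes on chromosome 11. Total RNA was sequenced from 4 groups with 1 library each: whole embryos at E11.5 with strain label C57B16/N, either Adar1-/- or Adar1-/- with Mavs-/-, and embryonic livers at E15.5 with strain label C57B6/J and the same genotypes. Without replicates in any group, differences are between single libraries, and counts of 2-fold genes are counts by size. Every group carries the Adar1 loss by its label, and no wild-type library was analysed here. Below, single mutant stands for the label Adar1-/- and double mutant for the label Adar1-/- Mavs-/-. ADAR1 is an enzyme that edits adenosines in double-stranded RNA, and MAVS passes on the signal of the RNA sensors RIG-I and MDA5. The embryo values stop partway through the genome, so 54 of the 62 genes had a value in the embryo library labelled double mutant and 3 in the embryo library labelled single mutant.

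The core histones H2A, H2B, H3 and H4 form the protein spool of the nucleosome, and H1 binds the linker DNA between nucleosomes. Replication-dependent copies are made in S phase to package new DNA, in contrast to variants such as H3.3 and H2A.Z that are made through the cell cycle. Their mRNAs end in a conserved stem-loop instead of a poly(A) tail. SLBP binds that stem-loop, and the U7 snRNP guides the cut just after it. When DNA synthesis stops, the mRNAs are degraded quickly. Total RNA, unlike RNA selected by its poly(A) tail, retains these mRNAs. The fetal liver is a site of blood formation and holds many dividing erythroid precursors.

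The stem-loop was looked for in the M21 transcripts of the 62 genes as GG, any 2 bases, CTTTT, any base, AG, any 2 bases and CC, on the transcript strand. It was found in 40 of them and in 0.0875% of all 141767 M21 transcripts. The stem separated H4 from the other types. All 10 H4 genes with a match had GGCCC or GGTCC in the 5′ arm of the stem, and all 30 H1, H2A, H2B and H3 genes with a match had GGCTC. The base after the TTTT varied within each type and was C in genes of each type. It was A in 1 H1, 2 H2B and 3 H3 genes alone, and T in 1 H2A and 2 H4 genes alone. The most frequent form, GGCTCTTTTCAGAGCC, occurred in 23 genes. A set with 1 to 3 genes of each type is given to let the arms be compared, with the 16 bases of the stem-loop in capitals.
Hist1h1c: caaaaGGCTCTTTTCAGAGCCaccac
Hist1h2ag: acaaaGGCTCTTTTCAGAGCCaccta
Hist2h2ac: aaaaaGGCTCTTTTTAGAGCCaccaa
Hist1h2bb: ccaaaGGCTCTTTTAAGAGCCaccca
Hist1h2bj: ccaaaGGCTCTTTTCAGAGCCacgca
Hist1h3c: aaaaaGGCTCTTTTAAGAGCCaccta
Hist1h4d: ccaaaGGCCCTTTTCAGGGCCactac
Hist1h4b: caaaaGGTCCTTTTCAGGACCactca
Hist2h4: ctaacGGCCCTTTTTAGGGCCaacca
In Hist1h2ag the annotated transcript ends 23 bases after the stem-loop. In Hist1h2ac it runs on for 2010 bases. The 22 genes without a match include Hist1h2an, whose annotated transcript has 393 bases, and no match says only that these letters are not in the annotated transcript.

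Of the 62 genes, 57 have a single exon in M21, and many copies are nearly alike. The median share of a gene's 50-base stretches that also occur in another histone gene was 78.9% for H2A, 54.1% for H3, 46.9% for H2B, 39.9% for H4 and 1.10% for H1. Reads from shared stretches cannot be assigned to 1 copy with certainty, so single values of core histone genes are uncertain, whereas H1 genes are mostly distinct in sequence. The status of the deposited estimate was LOWDATA for 42 of the 68 reference isoforms of these genes in each liver library and for 28 of 60 in the embryo library labelled double mutant. The deposited lower bound was 0 for 7 genes above 0 in the liver library labelled single mutant and for 6 in the other liver library. It was 0 for 8 in the embryo library labelled double mutant. Each of these sets includes Hist1h4c, Hist1h4d, Hist1h4f and Hist1h4k. 6 identifiers lie at a place in the deposited mm9 values that differs from their M21 gene order: Hist1h2ao, Hist1h2ap, Hist1h2bq, Hist1h2br, Hist2h2aa1 and Hist2h2aa2. All levels are in FPKM, that is, fragments scaled to transcript length and to the mapped fragments of the library, and liver values are given with the library labelled single mutant first.

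Adar and the tissue markers check the labels. In the liver library labelled single mutant, 0 of 8 Adar reference isoforms were above 0, and assembled isoforms gave 5.56 FPKM. In the liver library labelled double mutant, 3 of 8 were above 0 and the gene had 4.11 FPKM. Mavs had 7.26 and 9.96 FPKM, and how its allele was made is not known from the labels. By its Adar reference isoforms, the liver library labelled double mutant may go against its Adar1-/- label. Summed Adar was nevertheless higher in the other liver library, so the Adar values do not settle which label is in doubt. Every direction below is therefore between libraries with these labels. Both liver libraries held liver RNA, with albumin (Alb) at 4787 and 6648 FPKM. Alb had the highest log2 ratio of the 6 hepatocyte markers (0.45). Their median was 0.10, 0 were called in either direction, and 2 lay below 0, Apoa1 (-0.08) and Hnf4a (-0.28). All 5 counted skeletal muscle markers were lower in the library labelled double mutant, their sum being 125 and 9.34 FPKM with Myod1 listed at 0 in the second, and both counted heart markers were lower too, the sum of all 4 heart markers being 7.74 and 0.15 FPKM. The single counted cartilage marker, Col2a1 (2.78 and 0.053 FPKM), and the single counted neural marker, Stmn2 (1.19 and 0.028 FPKM), were also called lower there. Of 7 fetal erythroid markers 2 were at least 2-fold higher, with none listed at 0 and sums of 2046 and 2642 FPKM. Epor alone of the 7 had a log2 ratio below 0, at -0.43. The macrophage list had 2 of 5 at least 2-fold higher, with sums of 24.3 and 43.3 FPKM and Cd68 listed at 0 in the first library. Of 8 counted proliferation markers 1 was at least 2-fold higher, and their median log2 ratio was 0.45. Mki67 was 302 and 582 FPKM, while Mcm3 (-0.41) and Rrm2 (-0.17) lay below 0. Over all counted genes, 7.19% were at least 2-fold higher and 10.1% lower. Pcna and Mcm5, which all dividing cells use, were listed at 0 in both livers, so a value of 0 can be a failed estimate.

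Over the symbols that both tissues hold, histone genes had a larger share of the FPKM in the embryo than in the liver. Weighted by isoform length, which approximates fragments, they held 3.62% and 3.69% of the FPKM of all symbols in the 2 livers. Over the 5816 symbols that both tissues hold, they made up 36.9% of the weighted FPKM in the embryo library labelled double mutant and 14.1% in the liver library of the same label. The embryo values stop partway through the genome, so the histone share of all embryo RNA is not known. In the plot of FPKM by histone type the H4 genes have the highest median in each library, and the testis-type genes Hist1h1t and Hist1h2aa and the Hist2h gene Hist2h2be lie far below the others.

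**Figure D1:**
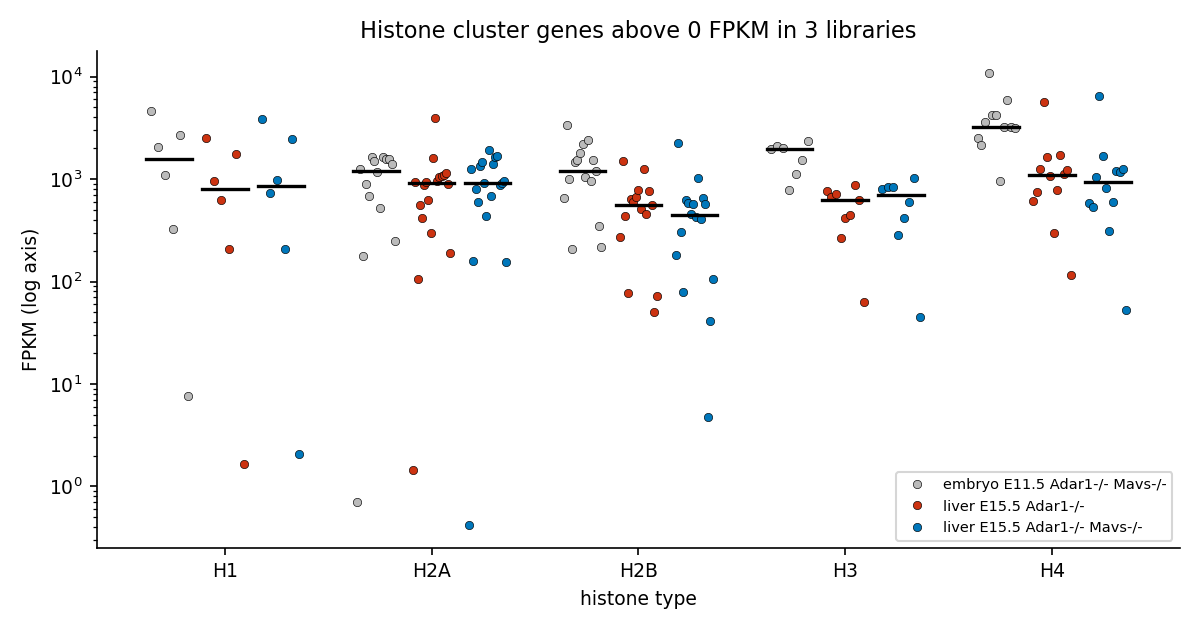
FPKM (log axis) of each histone gene above 0, grouped by histone type on the horizontal axis, in the embryo library labelled double mutant (grey) and the liver libraries labelled single mutant (red) and Adar1-/- Mavs-/- (blue). Each point is 1 gene in 1 library and each bar a median; the H4 medians are 3246 FPKM in the embryo and 1097 and 936 FPKM in the livers.

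Between the 2 livers, histone genes as a whole differed little, but the types differed from each other. The value compared is the log2 ratio of FPKM plus 1, double mutant over single mutant by label, after a factor that set the median of well-expressed genes to 0. A gene was counted with at least 1 FPKM in either library and called at a 2-fold difference. By size alone, 1 of 61 counted histone genes was called higher and 3 lower, against 7.19% and 10.1% of all 13596 counted genes. Of the calls over all genes 41.5% were higher, against 26.3% as TPM, a scaling that shifted the median of all genes by -0.25 where the upper quartile factor shifted it by 0.12. The median log2 ratio of the genes above 0 in both libraries was 0.49 for H2A, 0.34 for H1, 0.15 for H3, -0.17 for H4 and -0.24 for H2B, against -0.12 for all genes. With ratios centred on genes of like GC content, 6 of 61 histone genes were called higher, 4 of them H2A and 2 H2B, against 7.32% of all genes. When estimates not of status OK were left out, 1 of 17 was called lower, against 12.4% of all genes. The H2A median then fell to 0.07 over 6 genes and the H2B median was -0.04 over 7, so the gap between these types was much smaller. H2A and H1 medians stayed above 0 under every scaling and filter tried, while that of H3 was -0.16 as TPM, that of H2B 0.08 with ratios centred on genes of like GC content, and that of H4 0.11 with that centring and 0.04 with estimates of status OK only. In total RNA of a tissue, fewer cells of a type and less RNA per cell cannot be told apart. The part of muscle, heart, cartilage, neural, erythroid and macrophage RNA, and of the proliferation markers, in these values was not tested.

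**Figure D2:**
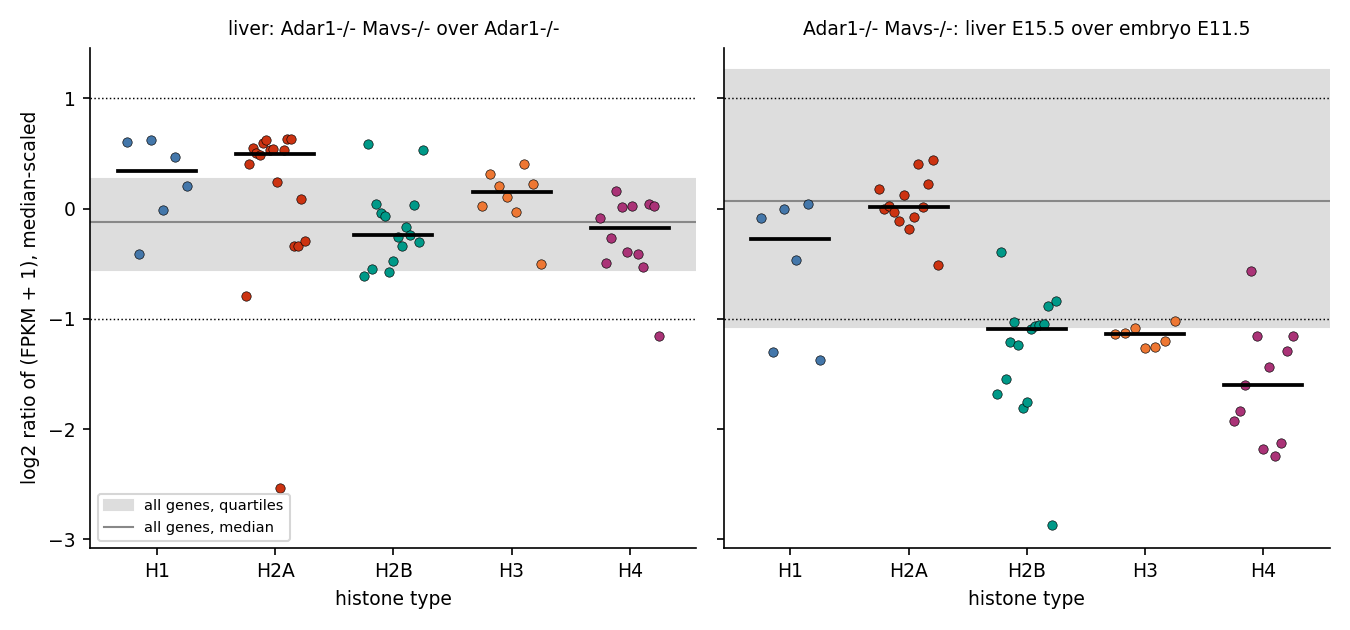
Log2 ratio of FPKM plus 1 for each histone gene above 0 in both libraries of a comparison, by type: on the left the liver libraries, labelled double mutant over Adar1-/-, and on the right liver over embryo, both labelled double mutant. Bars are medians, the grey band holds the middle of all genes between their quartiles, dotted lines mark 2-fold; H2A has the highest median in both panels, 0.49 and 0.02.

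Of the 6 H1 linker histone genes, 4 lay above 0, and the threshold of 1 was reached by none. Hist1h1a, the most abundant, had 2513 FPKM (deposited bounds 2499 to 2527) and 3885 FPKM (bounds 3866 to 3904), a log2 ratio of 0.61. It lies on chromosome 13 from 23855537 to 23856283 in mm9, as a single exon. Hist1h1e had 1759 and 2469 FPKM (0.47) and Hist1h1c 625 and 979 FPKM (0.63). Both genes lay in the same direction as Hist1h1a. Hist1h1d had 205 and 207 FPKM (-0.01), and Hist1h1b lay below 0, at 967 and 735 FPKM (-0.42). The summed H1 signal had a log2 ratio of 0.43, and of 0.28 without Hist1h1a.

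Most H2A genes of the chromosome 13 cluster had ratios above 0. Of 14 counted Hist1h H2A genes 12 were above 0, the median of the 14 was 0.53, and the call threshold of 1 was reached by none of these 12. The 2 below 0 were Hist1h2al, described next, and the testis-type gene Hist1h2aa, a low gene at 1.44 and 0.417 FPKM (-0.79) that was called lower with a pseudocount of 0.1. Hist1h2ap had 1074 and 1691 FPKM (0.64), Hist1h2ao 1040 and 1631 FPKM (0.63) and Hist1h2ag 940 and 1466 FPKM (0.62). Hist1h2ak was the most abundant of the cluster, at 1597 and 1920 FPKM (0.25). Of the 4 Hist2h and Hist3h copies 1 lay above 0, Hist2h2ac at 888 and 958 FPKM (0.09). Hist2h2aa1 had 1098 and 881 FPKM (-0.34) and Hist3h2a 188 and 156 FPKM (-0.29). H2A copies share most of their sequence, so their values are not independent of each other.

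The 1 H2A gene called lower was a pseudogene. Hist1h2al, a processed pseudogene in M21 that lies outside the cluster at 51298057 to 51298434 of chromosome 13 (mm9), had 3938 FPKM (bounds 3906 to 3969) and 687 FPKM (bounds 673 to 702), a 5.81-fold lower value in the second library. It shares 67.6% of its 50-base stretches with other histone genes. It was the largest H2A value of the first library. The log2 ratio of the summed H2A values was 0.02 with it and 0.35 without it. Hist1h2aj, an unprocessed pseudogene, was listed at 0 in the 3 libraries that hold it.

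H2B genes leaned to the opposite side. Of 13 counted Hist1h H2B genes, 10 were below 0, with a median of -0.24. Hist1h2bj had 665 FPKM (bounds 655 to 675) and 453 FPKM (bounds 443 to 462), a log2 ratio of -0.57. Hist1h2bn had 1266 and 1017 FPKM (-0.34) and the displaced identifier Hist1h2bq 764 and 657 FPKM (-0.24). The Hist1h2bq reference isoform above 0 (699 and 608 FPKM) lies at 23634793 to 23635228 of chromosome 13 in mm9. The Hist1h2bq isoforms that end near 21902068 were listed at 0. The most abundant H2B gene, Hist1h2bb, lay above 0, at 1486 and 2265 FPKM (0.59), and Hist1h2be and Hist1h2br were near 0, both at 0.04. Hist1h2br is displaced too, with 481 and 546 FPKM for its isoform at 21813913 to 21814436. Its isoform at 21925627 to 21929399 was listed at 0. Which H2B gene the values of Hist1h2bq and Hist1h2br belong to is therefore uncertain. Summed H2B had a log2 ratio of -0.07, and of -0.26 without Hist1h2bb. On chromosome 3, Hist2h2be was listed at 0 in the library labelled single mutant and had 4.79 FPKM in the other, and this is the 1 gene called higher.

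H3 and H4 genes of the chromosome 13 cluster had median ratios of 0.21 and -0.08. Of 7 Hist1h H3 genes 6 were above 0, from -0.03 for Hist1h3e (416 and 414 FPKM) to 0.40 for Hist1h3f (446 and 598 FPKM). Hist1h3g was the most abundant at 867 and 1029 FPKM (0.23). Hist1h3a had 767 and 791 FPKM (0.03), Hist1h3b 666 and 842 FPKM (0.32) and Hist1h3c 717 and 838 FPKM (0.21). Among Hist1h H4 genes 5 were above 0 and 6 below. Hist1h4d, the most abundant histone gene of both livers, had 5681 and 6452 FPKM (0.16), but its deposited bounds run from 0 to 5832 and from 0 to 6613 FPKM. Hist1h4f had 1637 and 1677 FPKM (0.01), Hist1h4m 1129 and 1175 FPKM (0.04), and Hist1h4k 1723 and 1209 FPKM (-0.53). The lower calls came from chromosome 3. Hist2h4 had 116 and 52.3 FPKM, 2.25-fold lower. Its reference isoform was listed at 0 in the library labelled double mutant, so the 52.3 FPKM there came from assembled isoforms. Hist2h3b had 619 FPKM and was listed at 0 in the library labelled double mutant. Hist2h3c2, also H3, had 62.9 and 44.7 FPKM (-0.50). Hist2h3b shares 79.7% of its 50-base stretches with other histone genes, and 2 isoforms without an M21 symbol beside the Hist2h genes had 467 and 563 FPKM in the first library and 354 and 416 FPKM in the second.

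H2A and H2B genes are often arranged head to head and share 1 promoter region. In the deposited values 11 such pairs had at most 500 bases between their transcripts. The pair of Hist1h2ag and Hist1h2bj has 264 bases between its transcripts (22134819 to 22135082 of chromosome 13 in mm9 lies between them). The 250 bases before the start of Hist1h2ag are shown because they lie between both genes of that pair, with CCAAT, on either strand, in capitals. They are from RefSeq, GRCm38.p6, chr13:22042950-22043199, minus strand.
Hist1h2ag: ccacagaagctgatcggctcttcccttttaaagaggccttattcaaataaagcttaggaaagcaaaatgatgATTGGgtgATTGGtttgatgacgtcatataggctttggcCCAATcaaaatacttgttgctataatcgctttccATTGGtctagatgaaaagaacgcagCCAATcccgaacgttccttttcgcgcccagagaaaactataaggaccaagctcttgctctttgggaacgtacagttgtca
For comparison, the 250 bases before the start of Hist1h4d, the most abundant H4 gene, are from the same assembly, chr13:23581318-23581567, plus strand, with CCAAT on either strand and TATAAA on the gene strand in capitals.
Hist1h4d: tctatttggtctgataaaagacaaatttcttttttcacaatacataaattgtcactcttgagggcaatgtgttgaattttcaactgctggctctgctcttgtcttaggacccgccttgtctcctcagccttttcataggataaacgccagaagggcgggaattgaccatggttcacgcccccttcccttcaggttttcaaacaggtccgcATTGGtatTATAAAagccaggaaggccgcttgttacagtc
The first holds 5 CCAAT matches and the second 1. RefSeq promoter windows of 300 bases, 250 before and 50 after the start, were matched for 53 of the 62 genes. CCAAT on either strand was in 45 of the 53, or 84.9%, against 37.4% of all 32851 windows: in 6 of 6 H1, 16 of 16 H2A, 13 of 13 H2B and 7 of 7 H3 windows, but in 3 of 11 H4 windows. TATAAA on the gene strand was in 50.9% of the histone windows against 8.32% of all. ATTTGCAT, the octamer bound by POU-family factors, was in 7 of 16 H2A and 4 of 13 H2B windows and in 0 of the 24 H1, H3 and H4 windows, against 1.74% of all windows. AAACACA, a motif known from H1 promoters, was in 5 of 6 H1 windows and 7.18% of all windows. Such matches describe the letters and are not shown to be bound.

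Within these pairs the H2A gene had the higher liver ratio in 8 of the 10 pairs with both genes above 0, and the median difference between H2A and H2B was 0.64. The largest was 1.19, for Hist1h2ag and Hist1h2bj, where the H2A gene had 940 and 1466 FPKM and the H2B gene 665 and 453 FPKM. For Hist1h2ac and Hist1h2bc it was 1.09, with 106 and 157 FPKM for H2A and 439 and 304 FPKM for H2B. The 2 exceptions were Hist1h2aa with Hist1h2ba (-0.18) and Hist3h2a with Hist3h2bb-ps (-0.82). The median GC content of H2A transcripts, 64.3%, is higher than that of H2B transcripts, 56.4%. Over all counted genes of each type, centring on genes of like GC content gave medians of 0.79 for H2A and 0.08 for H2B. With estimates of status OK only, the medians were 0.07 over 6 H2A genes and -0.04 over 7 H2B genes. The part of GC content in the difference between H2A and H2B was not tested.

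**Figure D3:**
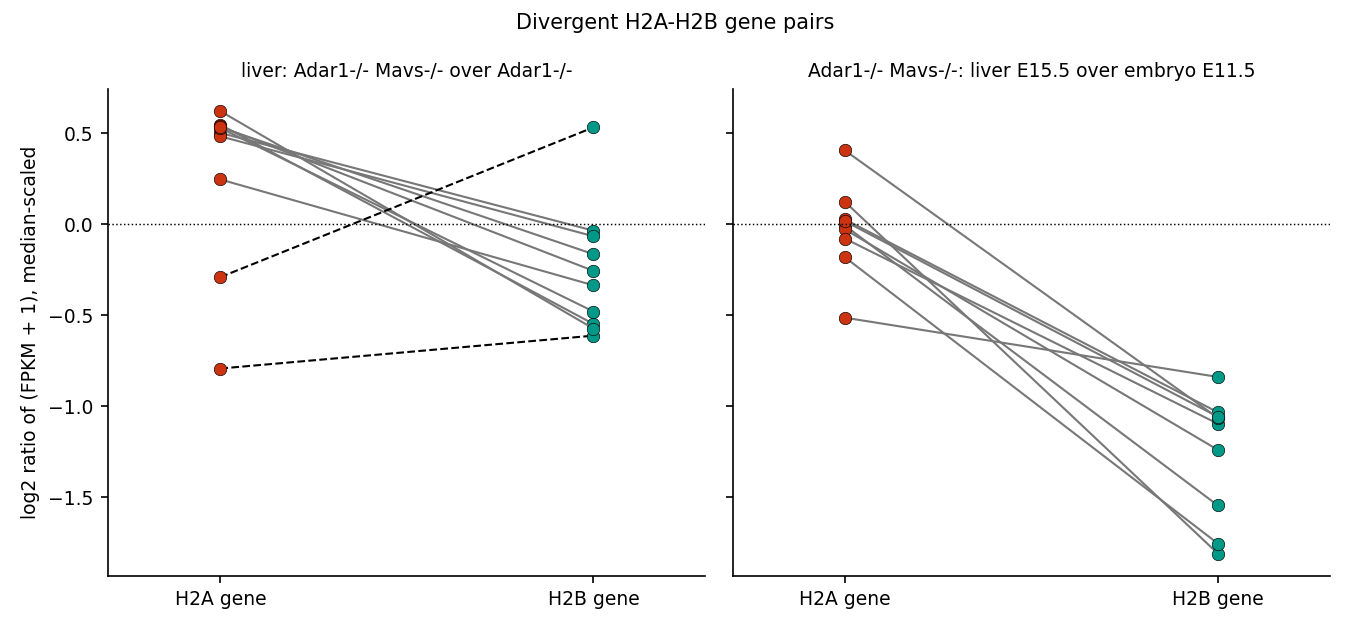
Log2 ratios of the H2A and the H2B gene of each divergent pair, joined by a line: on the left the liver libraries, labelled double mutant over Adar1-/-, and on the right liver over embryo in libraries labelled double mutant. Solid lines mark pairs with the H2A gene higher, 8 of 10 on the left and 9 of 9 on the right; dashed lines mark the others.

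In embryos only the Hist3h genes of chromosome 11 could be compared between genotypes. Hist3h2a had 247.5 FPKM in the library labelled single mutant and 251.2 in the library labelled double mutant, a log2 ratio of 0.42 after scaling by 1.32. Hist3h2ba had 449.9 and 349.2 FPKM (0.03), and the pseudogene Hist3h2bb-ps had 289.8 and 216.6 FPKM (-0.02). None of the 3 was called, where 19.2% of 1920 counted genes were called in either direction. Of those calls 40.1% were higher, against 9.60% as TPM and 21.7% with FPKM as deposited. All 3 ratios were below 0 as TPM, at -0.53, -0.92 and -0.98, and the upper quartile factor put all 3 above 0. With FPKM as deposited, Hist3h2ba was at -0.36, Hist3h2bb-ps at -0.42 and Hist3h2a at 0.02.

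The chromosome 13 cluster could also be set between tissues, in the libraries labelled double mutant, liver at E15.5 over embryo at E11.5. Tissue, age and strain label differ together here and cannot be told apart. H3, H4 and H2B genes were mostly lower in liver, and H2A and most H1 genes differed by less than 2-fold. Of the 49 counted Hist1h genes 30 were at least 2-fold lower and 0 higher, against 26.9% lower and 30.8% higher of all 2655 counted genes. By type, over Hist1h and Hist3h, the lower calls were 7 of 7 H3, 10 of 11 H4, 12 of 15 H2B, 2 of 6 H1 and 0 of 13 H2A genes. The medians were -1.14 for H3, -1.60 for H4, -1.10 for H2B, -0.28 for H1 and 0.02 for H2A. The H2A median was -0.16 with FPKM as deposited, -0.25 with the upper quartile factor, -0.90 as TPM and 1.04 with GC centring.

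GC content differs between the types, and allowing for it changes these counts. With ratios centred on genes of like GC content, 13 of 49 Hist1h genes were lower and 7 higher, against 21% lower (557 of 2655) and 26.9% higher of all genes, so the share that was lower was near that of all genes. The 7 were H2A genes. Under that centring, over Hist1h and Hist3h, the lower calls were 2 of 7 H3, 4 of 15 H2B, 6 of 11 H4, 2 of 6 H1 and 1 of 13 H2A genes. With estimates of status OK only, 8 of 16 Hist1h genes were lower and 1 higher, against 26.8% and 31.4% of all genes. H2A had the highest median of the types under each of these settings, as it did in the main values. As TPM all genes shifted, with a median of -0.83, 21.2% called higher and 46.0% called lower, so that 31.6% of the calls were higher against 53.4% in the main values.

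**Figure D4:**
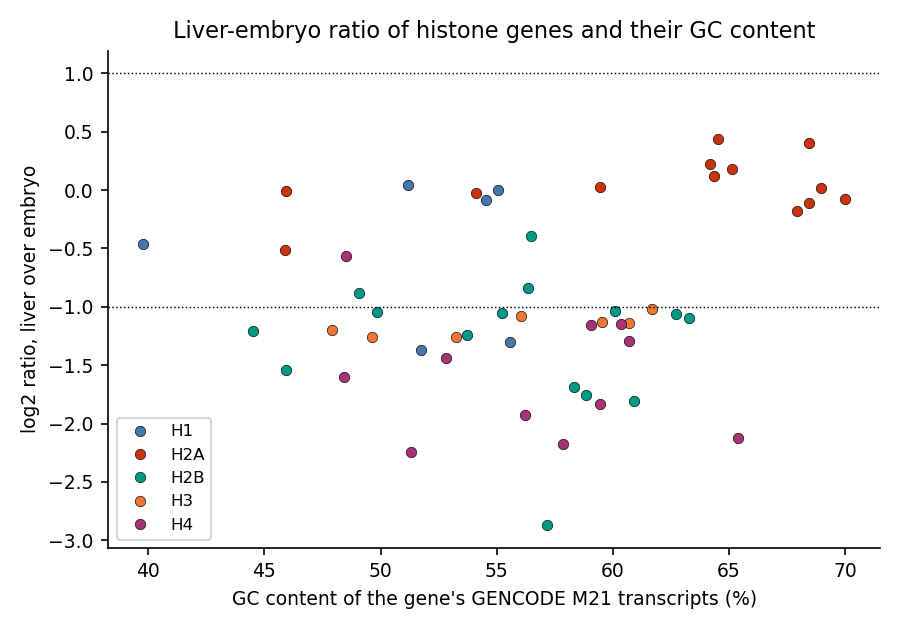
Log2 ratio of liver over embryo (libraries labelled double mutant) for each counted histone gene against the GC content of its M21 transcripts in percent, coloured by type, with dotted lines at 2-fold. The 13 H2A genes lie between -0.51 and 0.44, while 12 of 15 H2B, 7 of 7 H3 and 10 of 11 H4 genes lie below -1.

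Hist1h4d had 10767 FPKM in the embryo, the highest of any histone gene, and 6452 in liver (-0.56). Hist1h4k had 5950 and 1209 FPKM, Hist1h4h 4191 and 820 FPKM, and Hist1h4j 3190 and 597 FPKM. These 3 had the lowest ratios of the cluster, at -2.12, -2.18 and -2.24. The deposited lower bounds of Hist1h4d and Hist1h4k were 0 in both libraries. Hist1h1a had a ratio near 0, at 4664 and 3885 FPKM (-0.09). The highest ratios were those of Hist1h2ap (1406 and 1691 FPKM, 0.44), Hist1h2ak (1635 and 1920 FPKM, 0.41) and Hist1h2ao (1580 and 1631 FPKM, 0.22), all H2A. On chromosome 11, Hist3h2ba had 349.2 and 41.5 FPKM, 7.45-fold lower in liver.

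In these values the types stood in other proportions in the 3 libraries. Over the Hist1h genes with a value in the embryo library, which leaves out Hist1h2al, summed H4 was 3.14 times summed H2A in the embryo library labelled double mutant, 1.72 times in the liver library labelled single mutant and 1.15 times in the other liver library. Summed H2B over H2A was 1.38, 0.904 and 0.600 in the same order, and summed H3 over H2A was 0.847, 0.440 and 0.353. With Hist1h2al included, the liver values were 1.21 and 1.10 for H4 over H2A, 0.637 and 0.571 for H2B over H2A, and 0.310 and 0.336 for H3 over H2A, so the order of the livers turned for H3. A ratio within a library does not depend on the scaling between libraries. The sums leave out abundant isoforms without an M21 symbol beside the Hist1h genes, whose histone type was not determined. Of other genes measured in both tissues, the S-phase genes Rrm2, a subunit of ribonucleotide reductase, and Cdc6, a replication licensing factor, were higher in liver (1.36 and 1.13). Tk1, thymidine kinase, was lower (-2.77), and H3f3b, which encodes H3.3, was lower with 209 and 64.8 FPKM (-1.50). Of the other replication-independent histone genes measured in both, H2afv (-5.20) and H2afy2 (-3.94) were lower still, and Hils1 was listed at 0 in both. Over all counted genes 30.8% were at least 2-fold higher in liver and 26.9% lower.

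3 members are known from male germ cells, where they are made before or during meiosis. Hist1h1t, the testis H1, had 1.65 and 2.09 FPKM in the livers and 7.68 FPKM in the embryo library labelled double mutant. Hist1h2aa had 1.44 and 0.417 FPKM in the livers and 0.705 FPKM in that embryo library. Hist1h2aa was thus near the limit for counting in each library, and Hist1h1t in the livers. Hist1h2ba, known as testis H2B, had 273 and 181 FPKM in the livers and 658 FPKM in the embryo. It shares 38.2% of its 50-base stretches with other histone genes, against 0% for Hist1h1t and 2.35% for Hist1h2aa. Of 5 germ cell markers 0 reached 1 FPKM in either liver, and Dazl and Sycp3 were listed at 0 in both.

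Longer isoforms had lower FPKM. Over the isoforms above 50 FPKM, Spearman's rank correlation of length and FPKM was -0.54 in the liver library labelled single mutant (58 isoforms), -0.34 in the other liver library (54) and -0.49 in the embryo library labelled double mutant (51). It is a description across isoforms of 1 library, which share its depth and its fragment lengths. Reference isoforms of at most 900 bases had a median of 789 and 829 FPKM in the livers, and longer ones 152 and 156 FPKM. FPKM is divided by length, and the gap was smaller for FPKM times length in kilobases. Those medians were 409 and 420 for the short and 286 and 334 for the long isoforms. With the cut at 700 bases, they were 834 for the short and 934 for the long isoforms in the embryo library labelled double mutant. The liver ratio of the sums was 0.02 for the short and 0.29 for the long isoforms.

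**Figure D5:**
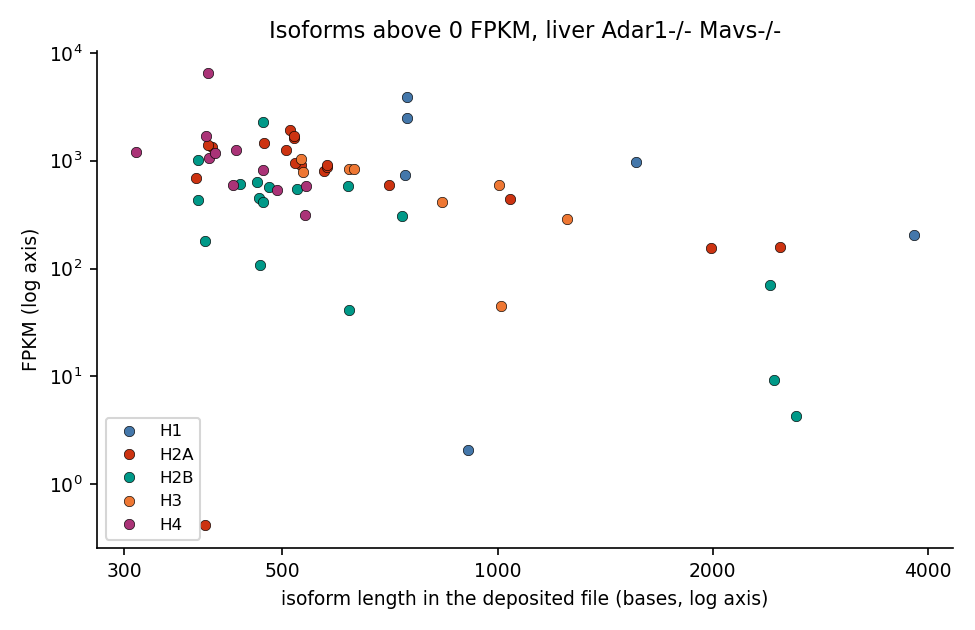
FPKM of each histone gene isoform above 0 in the liver library labelled double mutant against its length in bases, both on log axes, coloured by type. Isoforms under 900 bases hold most of the summed FPKM, a value divided by length, with a median of 829 FPKM against 156 FPKM for longer ones.

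The genes that serve histone supply were read from 5 lists. Of 18 counted genes for histone mRNA processing and decay, 1 was called higher and 4 lower in liver, against 7.19% higher and 10.1% lower of all counted genes, the background for each of the 5 lists. Slbp, the stem-loop binding protein, had 80.4 FPKM (bounds 78.3 to 82.6) and 156 FPKM (bounds 153 to 159), a log2 ratio of 0.93 that was just under the threshold. The lower calls were the nuclease subunit Exosc10 (18.4 and 6.59 FPKM, -1.37), the helicase Upf1, which takes part in histone mRNA decay (12.4 and 5.29 FPKM, -1.10), the cleavage endonuclease Cpsf3 (27.6 and 12.8 FPKM, -1.07) and Ncbp2, which had 1.41 FPKM and was listed at 0 in the second library. Lsm1, named here after its values were seen, was listed at 0 in the first library and had 5.51 FPKM in the second. Cap-binding Ncbp1 was near level at 24.1 and 21.3 FPKM (-0.19).

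Of 12 counted genes for histone gene transcription, 0 were called, against 7.19% higher and 10.1% lower of all genes. Npat, the cofactor of histone gene transcription, had 9.80 and 17.3 FPKM (0.74) and its partner Casp8ap2 had 12.6 and 22.7 FPKM (0.78); both were named after their values were seen. Cyclin E2 (Ccne2) had 178 and 270 FPKM (0.58), cyclin E1 (Ccne1) 40.7 and 33.5 FPKM (-0.29) and E2f2 24.7 and 21.5 FPKM (-0.21). Among 19 histone chaperones 1 was called higher and 2 lower, and all 3 were listed at 0 in a library (Rbbp4 in the first, Hira and Ipo4 in the second). Over all genes 7.19% were called higher and 10.1% lower, so the chaperone counts are near the background. The abundant chaperones Npm1 (96.9 and 120.2 FPKM), Atrx (81.3 and 83.2 FPKM) and Ssrp1 (75.1 and 72.4 FPKM) had ratios of 0.29, 0.01 and -0.07.

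Of 9 counted replication-independent histone genes, 0 were called higher and 2 lower, against the same 7.19% and 10.1%. H3f3a, which encodes H3.3, had 148.5 and 285.1 FPKM (0.92), while H3f3b, which encodes the same protein, had 83.9 and 64.8 FPKM (-0.39). H2afx, the variant phosphorylated at DNA breaks, had 254.2 and 177.5 FPKM (-0.53). H2afv, which encodes an H2A.Z form, was called lower with 14.1 and 4.23 FPKM (-1.54), and turned to 1.04 with estimates of status OK only. H2afy2 had 1.14 FPKM and was listed at 0 in the second library. In the S-phase list 1 of 23 was called higher and 1 lower, again against 7.19% and 10.1% of all genes. DNA polymerase alpha, Pola1, had 19.9 and 43.8 FPKM (1.08), and DNA ligase I, Lig1, had 75.9 and 13.7 FPKM (-2.40). Cyclin A2 (Ccna2) had 131 and 213 FPKM (0.68), and the helicase subunit Mcm6 86.9 and 85.6 FPKM (-0.04). The list as a whole had a median log2 ratio of 0.12, against -0.12 for all genes.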

How the data were processed

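Total RNA was measured in 4 libraries, 1 per group, so no value has a replicate, no p-value was computed and every comparison is between libraries. Trizol was used for extraction and standard Illumina protocols for the libraries, per the labels' protocols. The mm9 build, TopHat 1.4.0, Cufflinks 2.2.1 and edgeR 3.4.2 are named, with no role given to any, per the submitters' processing notes. The deposited FPKM values, with bounds and a status, are per isoform, per the file headers. The bounds cover estimation within a library. The deposited coverage signal, a mean read depth per isoform, is a fixed multiple of FPKM in each library and so gives depth as coverage per FPKM: 3.48 and 5.62 in the embryo libraries labelled Adar1-/- and Adar1-/- Mavs-/-, and 8.58 and 7.13 in the liver libraries. The sources used here do not give read totals, strand or the handling of reads with several matches.

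Transcript identifiers were matched to GENCODE M21 symbols (88.7% and 90.2% of reference isoforms in embryos, 86.7% in livers). A gene's value is the summed FPKM of its isoforms, assembled ones included where they best overlap it. Values were compared as log2 of FPKM plus 1 after a median factor over genes of at least 5 FPKM (0.987 from 6413 genes in liver, 1.32 from 904 in embryos, 1.13 from 891 between tissues), with Python 3.11.15, numpy 2.4.6 and pandas 2.3.3. The comparison was tested on simulated data. This scale understates differences of low genes. GC content and shared stretches of 50 bases were read from M21 transcripts, whose length equals the deposited one for 34 of 68 isoforms. Positions are mm9 as deposited, and sequences come from M21 transcripts and RefSeq GRCm38.p6 promoter windows.

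Members and lists were chosen with earlier results of these data known. Genes named are, per type, the 3 of highest mean liver FPKM, the 2 highest and the 2 lowest liver ratios, all Hist3h and testis-type genes, the 3 of highest embryo FPKM and the 3 highest and lowest tissue ratios, and per list the 3 of highest FPKM and up to 3 called in each direction; others illustrate pairs or calls and were chosen after their values were seen. Genes without a matched isoform in the livers, among them Hist4h4, were not analysed here. Reference isoforms without an M21 symbol are in no type sum, and some beside the Hist1h genes were abundant. The isoform at 21809497 to 21809984 of chromosome 13 (mm9) had 2795 FPKM in the embryo library labelled double mutant. In the livers it had 897 and 1050 FPKM. The isoform at 21874784 to 21875266 had 2769 FPKM in that embryo library and 983 and 1137 FPKM in the livers.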

Additional observations from a re-analysis of the deposited data

Results flagged for a closer look

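The 3 Hist3h genes had ratios of opposite sign in the 2 tissues, Adar1-/- Mavs-/- over Adar1-/- by label. For Hist3h2a the log2 ratio was 0.42 in embryos and -0.29 in liver, a difference of -0.71. For Hist3h2ba it was 0.03 and -0.30, a difference of -0.33. For Hist3h2bb-ps it was -0.02 and 0.53, a difference of 0.55. With 1 library in each group these differences were not tested, and the embryo signs change with the scaling.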

How the results depend on the processing

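No paired analysis was possible because each group has 1 library. The values below are liver log2 ratios of type sums and counts of genes called 2-fold, double mutant over single mutant by label. The sums in the main values are 0.43 for H1, 0.02 for H2A, -0.07 for H2B, -0.01 for H3 and -0.07 for H4. With FPKM as deposited H1 was 0.45 and H3 0.0056. As TPM over named genes the sums were 0.11 for H1, -0.29 for H2A, -0.39 for H2B and -0.33 for H3; 0 S-phase genes were higher, and 2 transcription genes and 4 chaperones were lower. With an upper quartile factor they were 0.57 for H1, 0.16 for H2A and 0.13 for H3; 3 processing genes, 1 replication-independent histone gene and 2 S-phase genes were higher, and 2 processing genes lower. With a pseudocount of 0.1, 2 processing genes were higher and 1 transcription gene lower. With a filter of 5 FPKM, 0 histone cluster genes and 0 chaperones were higher and 1 replication-independent gene lower. With reference isoforms only, 2 processing and 2 S-phase genes were higher, and 2 transcription genes and 5 chaperones lower.

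With estimates of status OK only, far fewer histone genes remain: H1 was 0.47, H2A -0.80, H2B 0.40 and H3 0.025. Then 1 histone cluster gene was lower, 1 Hist1h gene was higher and 8 lower in liver against embryo, and H2afv turned to 1.04. In the lists 2 transcription genes, 2 chaperones, 1 replication-independent gene and 4 S-phase genes were higher, and 1 replication-independent gene and 3 S-phase genes lower. Centring within GC bins and leaving out displaced identifiers were added after seeing the data. The first gave 6 histone cluster genes higher in liver, and 7 Hist1h genes higher and 13 lower in liver against embryo. Without the most abundant gene of each type the sums were 0.28 for H1, 0.35 for H2A, -0.26 for H2B and -0.073 for H3. With short isoforms set at 700 bases, the short sum was -0.038 and the long sum 0.33; at 1200 bases the long sum was 0.22. Beyond what follows from the sets of genes used, the cause of these shifts was not tested. The other 127 alternative values of these sums and counts stayed within 1.5 times the count or within the deposited bounds. Those of the H4 sum are among them because its bounds are wide, with lower bounds of 0 for Hist1h4d and others. The H4 sum ranged from -0.38 to 0.07, kept its sign in 5 of 7 alternatives and was -0.21 without Hist1h4d. A further 930 alternative values were of single genes, of type medians and of type sums in liver against embryo. Among these, H2afv alone changed from one called direction to the other. Depth is known as coverage per FPKM alone, so no counting limit could be given.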
